A study of Rattus norvegicus with 96 samples.

Results

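The motor proteins described here are 9 rat genes of microtubule-based transport: Kif1a, Kif1b, Kif5a, Kif5b, Kif5c, Kif3a, Kif3c, Kif2a and the light chain Klc1. Their members are the probe sets (sets of short probes read as 1 value) that the platform annotation gives to 1 of these symbols alone, which came to 23 of the 31042 probe sets kept. A further 4 probe sets are annotated to a member together with another gene and were left out. The genes were chosen by their differences between ethanol and water rats, those of Kif1a in the amygdala and of Kif5c in the accumbens. Probe sets are taken singly because those of Kif1a and Kif5c were known to disagree, so that disagreement is also given without a test. Those ethanol differences are therefore given below as values without tests.

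Kinesins use ATP to walk along microtubules, mostly towards the plus end, and in axons that direction leads away from the cell body. Kif1a and Kif1b carry precursors of synaptic vesicles and mitochondria, Kif5a, Kif5b and Kif5c are the heavy chains of conventional kinesin and bind cargo with the help of light chains such as Klc1, and Kif3a and Kif3c belong to kinesin-2. Kif2a does not walk but takes tubulin off microtubule ends. Kif5a, Kif5c, Kif1a and Kif3c are found mainly in neurons, while Kif5b is made in most tissues.

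RNA came from rats of the P strain, bred to prefer alcohol, in 96 arrays. Of these, 48 held the central amygdala (CeA) and 48 the accumbens shell (NAc shell). Ethanol rats had ethanol in limited-access sessions and water rats received none, and brains were collected 1, 6 or 24 h past the final session. At 1, 6 and 24 h the CeA groups held 11, 10 and 10 arrays of ethanol rats and 6, 5 and 6 of water rats. The NAc shell groups held 10, 10 and 11 of ethanol rats and 7, 5 and 5 of water rats. Age, sex and the amounts drunk are not given in the labels, which also do not say that each array is a separate rat or which arrays of both regions share a rat, so p values measure the spread between arrays.

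Values are log2 units of the authors' RMA signal, in which a difference of 1 is a doubling. Probe sets bind with different strength, so levels are compared only within a probe set. In tissue RNA, fewer cells of a type and less RNA per cell cannot be told apart. Of the 23 probe sets, 19 passed the filter on low signal for the CeA and 18 for the NAc shell. The probe set 1384133_at of Kif1a passed through the CeA alone, where it is high, so its regional difference is partly fixed by the filter. Kif1a 1397505_at, Kif3c 1387657_at, Klc1 1375229_at and the only Kif1b probe set, 1389863_at, were below the limit in both regions and were not tested.

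Defining markers matched the dissections in part. In water rats all 7 measured markers of medium spiny neurons, the main cells of the accumbens, were lower in the CeA (median -2.63), while Cyp26b1 and Crh, marks of CeA neurons, were higher by 3.96 and 2.46. Of 6 CeA neuron markers 3 were higher and 2 lower. Lower quartiles of CeA arrays ran from 5.75 to 5.88 and those of NAc shell arrays from 6.01 to 6.16. The difference between the 3 prime and 5 prime control probe sets of Gapdh, which falls with intact RNA, was 2.91 (SD 0.53, n = 48) for the CeA and 1.81 (SD 0.25, n = 48) for the NAc shell. It was 2.92 in ethanol and 2.91 in water rats of the CeA, and 1.79 and 1.85 in the NAc shell. Correlation with the other arrays of the region was low for 3 arrays of the CeA, 2 of them of ethanol rats. It was also low for 5 of the NAc shell, all of ethanol rats. CeA title numbers fell into 4 runs, in each of which the hours start again. Runs were counted apart for ethanol and water rats and matched by order, a match that the labels do not give. The 3 low CeA arrays were all in run 4.

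Kif1a and Kif5c held the probe sets that differed most between regions, and within the CeA the 2 varied together across arrays, as given below. Their promoter sequences are shown for that reason. Each runs from 250 bases before to 50 after the RefSeq gene start in the rat build GRCr8, and capitals mark the GC box GGGCGG on either strand. The Kif1a promoter lies at chr9:101094728-101095027 on the minus strand and the Kif5c promoter at chr3:54441057-54441356 on the plus strand.
Kif1a: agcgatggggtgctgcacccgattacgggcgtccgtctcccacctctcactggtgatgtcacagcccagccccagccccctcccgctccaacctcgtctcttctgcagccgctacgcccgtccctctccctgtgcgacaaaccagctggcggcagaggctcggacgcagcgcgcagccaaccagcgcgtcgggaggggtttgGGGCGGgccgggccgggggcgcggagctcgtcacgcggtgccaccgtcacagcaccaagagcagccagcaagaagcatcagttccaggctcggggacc
Kif5c: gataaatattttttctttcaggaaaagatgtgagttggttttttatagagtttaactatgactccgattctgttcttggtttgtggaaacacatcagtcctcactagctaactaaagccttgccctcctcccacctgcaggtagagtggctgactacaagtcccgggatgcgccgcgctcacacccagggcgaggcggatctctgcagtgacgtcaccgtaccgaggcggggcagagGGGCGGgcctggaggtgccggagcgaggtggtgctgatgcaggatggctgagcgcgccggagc
The Kif1a promoter had a GC content of 69.7% and 29 CpG dinucleotides, and that of Kif5c 55.7% and 17, against medians of 51.7% and 7 over the 33469 promoters of the table. Both held 1 GC box, which 33.1% of all promoters contain. The Kif5c promoter also held 1 copy of TGACGTCA, the core of the cAMP response element, in lower case above, found on either strand in 1.83% of promoters, and the Kif1a promoter held none. CCAAT and CACGTG, present in 37.5% and 6.42% of promoters, were in neither. These matches describe letters and do not show binding. Promoters of 8 members were listed. The GC box was present in all 8.

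Between the regions, kinesin probe sets ranged from lower in the CeA to over 6-fold higher, and probe sets of the same gene often disagreed. The light chain Klc1 read lower in the CeA. In water rats 12 of the 18 members that passed the filter in both regions differed (limma, adjusted p under 0.05), 9 higher and 3 lower in the CeA, where 76.2% of all tested probe sets were called, 36.6% higher and 39.6% lower. In ethanol rats it was 14 of 18, 10 higher and 4 lower, with 82.8% of all called, 39.1% higher and 43.7% lower. The fit also called Kif1a 1384133_at, which is left out of these counts. The share of members called lies near that of all probe sets, which is taken over the 19678 that passed the filter in either region. The median difference of the 18 was 0.24 in water and 0.23 in ethanol rats, and that of all tested probe sets -0.01 and -0.03. The sizes of single members are described below. The lower quartiles and the Gapdh end difference also differ by region, so array processing, RNA quality and region cannot be told apart here.

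Of the vesicle motors, Kif1a gave opposite answers in its probe sets. For 1384133_at, water arrays of the CeA read a lowest, median and highest of 9.08, 9.45 and 9.73 at 1 h and 8.17, 8.89 and 9.78 at 24 h. At 6 h the 5 CeA water arrays read 7.82, 8.57, 8.94, 9.10 and 9.54. Water arrays of the NAc shell read 6.64, 6.97 and 7.08 at 1 h, then 6.97, 6.98, 7.01, 7.01 and 7.13 at 6 h and 6.84, 6.95, 6.96, 7.01 and 7.11 at 24 h. The highest NAc shell value of any group, 7.81, stood just under the lowest CeA value, 7.82, so the regions did not overlap. In ethanol rats the CeA read 9.08, 10.03 and 10.55 at 1 h, 8.36, 9.83 and 11.15 at 6 h and 8.97, 9.27 and 9.75 at 24 h. The NAc shell of ethanol rats read 6.75, 6.95 and 7.31, then 6.40, 7.04 and 7.81, then 6.49, 6.99 and 7.26. The CeA was higher by 2.14 ± 0.14 (SE) in water rats, a 4.39-fold difference, and by 2.70 ± 0.10 in ethanol rats, 6.49-fold. No test is given, because the probe set entered through the CeA alone.

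The other tested Kif1a probe set, 1382785_at, did not share this. It read a lowest, median and highest of 8.86, 9.35 and 9.91 for 17 CeA water arrays and 9.37, 9.65 and 10.01 in 17 NAc shell water arrays. In ethanol rats CeA arrays read 8.67, 9.56 and 9.93 and NAc shell arrays 9.17, 9.68 and 10.11, and the regions overlapped almost entirely. It was lower in the CeA of water rats by -0.23 ± 0.09 (adjusted p = 0.0193), and the difference in ethanol rats, -0.11 ± 0.07, did not pass (adjusted p = 0.120). The regional difference of 1382785_at minus that of 1384133_at was -2.38 for water and -2.82 for ethanol rats. The third, 1397505_at, stayed low in both regions, with CeA arrays at 6.17 to 7.10 and NAc shell arrays at 6.08 to 7.19, with differences of 0.10 ± 0.07 and 0.15 ± 0.05. Which part of the transcript each probe set reads was not analysed here.

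Kif1b, the close relative of Kif1a, had 1 probe set of its own, 1389863_at, near the floor of the arrays. CeA arrays read 4.45 to 5.10 and NAc shell arrays 4.85 to 5.58, with medians of 4.74 and 5.10. The difference of -0.43 ± 0.05 in water and -0.37 ± 0.04 in ethanol rats has the sign of the offset in the lower quartiles and was not tested.

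Among the conventional kinesin heavy chains, Kif5c gave the largest difference of any member. In 1380172_at the 5 CeA water arrays at 6 h read 12.36, 12.63, 12.67, 12.82 and 13.98, and water arrays at 1 h and 24 h read 12.48, 12.82 and 12.997, and 11.76, 12.57 and 13.09 (lowest, median, highest). Water arrays of the NAc shell read 9.21, 9.96 and 10.43 at 1 h, then 9.19, 9.74, 9.90, 10.25 and 10.43 at 6 h and 9.65, 9.75, 9.86, 10.14 and 10.61 at 24 h. Every CeA array stood above every NAc shell array, the nearest being 11.76 and 10.73. In ethanol rats the CeA read 12.57, 13.25 and 14.06 at 1 h, 12.70, 13.09 and 13.85 at 6 h and 12.42, 12.71 and 13.30 at 24 h. The NAc shell of ethanol rats read 9.32, 10.23 and 10.72, then 8.99, 10.23 and 10.59, then 9.53, 10.23 and 10.73. The CeA was higher by 2.80 ± 0.15 in water rats, 6.96-fold (adjusted p = 1.72e-31), and by 2.97 ± 0.11 in ethanol rats, 7.86-fold (adjusted p = 1.65e-43).

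The other 2 Kif5c probe sets differed far less. In 1395997_at, CeA water arrays read a lowest, median and highest of 6.64, 7.73 and 8.67 and NAc shell water arrays 6.83, 7.15 and 7.63. Ethanol arrays of the CeA read 7.14, 7.86 and 8.36 and those of the NAc shell 6.55, 7.06 and 7.68, so the regions overlapped but the CeA median was higher in both treatments. The differences were 0.50 ± 0.12 in water (adjusted p = 2.10e-04) and 0.63 ± 0.09 in ethanol rats (adjusted p = 1.47e-09). In 1396154_at, CeA water arrays read 6.65, 7.26 and 8.07 and NAc shell water arrays 6.70, 7.02 and 7.84, and ethanol arrays 6.72, 7.45 and 8.20 against 6.94, 7.63 and 8.35. Its differences of 0.13 ± 0.13 (adjusted p = 0.382) and -0.09 ± 0.10 (adjusted p = 0.419) did not pass. The regional difference of 1380172_at exceeded that of 1395997_at by 2.31 and 2.35 and that of 1396154_at by 2.69 and 3.07, in water and ethanol rats in turn.

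Kif5a, a neuronal heavy chain mutated in hereditary spastic paraplegia, was higher in the CeA in all 3 of its probe sets, by different amounts. The brightest, 1373187_at, read a lowest, median and highest of 12.03, 12.55 and 12.85 in CeA water arrays and 11.54, 11.86 and 12.13 in NAc shell water arrays, which overlap only at their edges. Ethanol arrays read 11.97, 12.47 and 13.06 against 11.34, 11.87 and 12.60. The difference was 0.69 ± 0.09 in water (adjusted p = 5.54e-11) and 0.60 ± 0.07 in ethanol rats (adjusted p = 6.86e-14). For 1382787_at it was 1.27 ± 0.11 and 1.09 ± 0.08 (adjusted p = 4.91e-19 and 3.87e-23). For 1375875_at it was 0.16 ± 0.08, which did not pass (adjusted p = 0.0779), and 0.20 ± 0.06, which did (adjusted p = 0.00208). The value in water rats passed with only 6 of the 96 arrays left out in turn, at 0.18 to 0.20, over a full range of 0.13 to 0.20. The Kif5a probe sets also differed from each other in each of the 6 pairwise tests, most for 1375875_at minus 1382787_at, at -1.11 in water and -0.89 in ethanol rats. Each had a permutation p of 1e-05, the smallest that 100000 resamples allow (adjusted over 30 such tests 1.58e-05).

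Kif5b, the widely expressed heavy chain, differed little. In 1372444_at, CeA water arrays read 12.34, 13.04 and 13.29 (lowest, median, highest) and NAc shell water arrays 12.39, 12.60 and 13.04, and ethanol arrays 12.22, 12.98 and 13.37 against 12.26, 12.64 and 13.01. The regions overlapped, with the CeA median higher, by 0.32 ± 0.08 in water (adjusted p = 1.96e-04) and 0.25 ± 0.06 in ethanol rats (adjusted p = 4.33e-05). The other probe set, 1378096_at, gave 0.09 ± 0.08 and 0.09 ± 0.06, neither of which passed (adjusted p = 0.299 and 0.182). With arrays weighted by quality the difference in water rats was 0.17 and passed (adjusted p = 0.0200).

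The light chain Klc1, which links heavy chains to cargo, was lower in the CeA in all its probe sets. Its brightest probe set, 1370886_a_at, read a lowest, median and highest of 13.30, 13.50 and 13.59 in CeA water arrays and 13.53, 13.62 and 13.85 in NAc shell water arrays. Ethanol arrays read 13.35, 13.49 and 13.59 against 13.40, 13.73 and 14.02, so the ranges overlapped within a narrow span. The difference was -0.14 ± 0.04 in water (adjusted p = 0.00112) and -0.24 ± 0.03 in ethanol rats (adjusted p = 7.06e-12). For 1399126_at it was -0.31 ± 0.07 and -0.27 ± 0.05 (adjusted p = 2.05e-05 and 6.96e-07). For 1388125_a_at it was -0.37 ± 0.19, which did not pass (adjusted p = 0.0770), and -0.50 ± 0.14, which did (adjusted p = 9.72e-04). The value in water rats passed with only 4 of the 96 arrays left out in turn, at -0.43 to -0.42, over a full range of -0.43 to -0.28. The untested 1375229_at gave -0.44 ± 0.07 and -0.37 ± 0.05. After group means were removed, the SD of 1370886_a_at across CeA arrays was 0.07, and 0.113% of all probe sets had a lower one. That of 1388125_a_at was 0.55, above 97.7% of probe sets.

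Kinesin-2 showed the same split between probe sets. Kif3a, the shared subunit of the kinesin-2 motors that also build cilia, read in 1378509_at a lowest, median and highest of 9.79, 10.27 and 11.004 in CeA water arrays and 8.47, 8.85 and 9.34 in NAc shell water arrays. Ethanol arrays read 9.81, 10.42 and 10.97 against 7.79, 8.97 and 9.49, and no CeA array overlapped with the NAc shell. The CeA was higher by 1.39 ± 0.10 in water rats, 2.62-fold (adjusted p = 1.31e-23), and by 1.44 ± 0.07 in ethanol rats (adjusted p = 1.19e-33). The second Kif3a probe set, 1377025_at, had -0.05 ± 0.06 (adjusted p = 0.408) and -0.10 ± 0.04 (adjusted p = 0.0202), and the call in ethanol rats was lost without the low-correlation arrays at -0.08 (adjusted p = 0.0532). The regional difference of 1377025_at minus that of 1378509_at was -1.46 for water and -1.54 for ethanol rats (adjusted permutation p = 1.58e-05 each).

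Kif3c, the neuronal partner of Kif3a, was higher in the CeA in 1369637_at. CeA water arrays read 11.66, 11.999 and 12.31 and NAc shell water arrays 11.08, 11.31 and 11.48, with no overlap, and ethanol arrays 11.58, 12.07 and 12.47 against 10.99, 11.37 and 11.77. The difference was 0.71 ± 0.06 in water (adjusted p = 2.09e-17) and 0.72 ± 0.05 in ethanol rats (adjusted p = 1.01e-25). The dim 1387657_at, not tested, gave 0.17 ± 0.12 and 0.22 ± 0.09.

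For the depolymerase Kif2a, 2 probe sets gave a difference and the third gave none that could be detected. In 1383156_at, CeA water arrays read a lowest, median and highest of 10.48, 10.73 and 10.89 and NAc shell water arrays 9.90, 10.16 and 10.38, with no overlap, and ethanol arrays 10.55, 10.76 and 10.92 against 9.88, 10.16 and 10.69. The CeA was higher by 0.58 ± 0.04 in water (adjusted p = 2.85e-21) and 0.57 ± 0.03 in ethanol rats (adjusted p = 2.74e-29). In 1371125_at it was higher by 0.50 ± 0.08 and 0.47 ± 0.06 (adjusted p = 2.11e-08 and 3.78e-12). In 1392532_at the differences were 0.00 ± 0.05 (adjusted p = 0.956) and -0.02 ± 0.04 (adjusted p = 0.721).

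Ranked over the 12 groups by their means, 10 of the 23 probe sets had all 6 CeA groups above all 6 NAc shell groups. The share of all probe sets ordered in this way was not computed, so nothing is read from this count. Between regions 76.2% of all tested probe sets were called in water and 82.8% in ethanol rats. Kif1a 1384133_at, among the 10, passed the filter through the CeA alone. For Kif1a 1384133_at, Kif5c 1380172_at, Kif3a 1378509_at, Kif3c 1369637_at, Kif2a 1383156_at and Kif5a 1382787_at, 10 of the 11 pairs of neighbouring groups overlapped in mean ± SD and the 1 gap lay between the regions. For the other 4, Kif2a 1371125_at, Kif5b 1372444_at, Kif5a 1373187_at and Kif5c 1395997_at, all 11 pairs overlapped. For Kif1a 1384133_at the order ran from CeA ethanol at 1 h (mean 9.95) through CeA ethanol at 6 h, CeA water at 1 h, CeA ethanol at 24 h, CeA water at 24 h and CeA water at 6 h, then the NAc shell from ethanol at 6 h to water at 1 h (mean 6.87). For Kif5c 1380172_at it ran from CeA ethanol at 1 h (mean 13.23) to NAc shell water at 6 h (mean 9.90). The groups within a region were not separated by this order. The reverse order, with all 6 NAc shell groups above all 6 CeA groups, was held by Kif1b 1389863_at and all Klc1 probe sets. Kif1b 1389863_at had its 1 gap between the regions. For Klc1 1370886_a_at all 11 neighbouring pairs overlapped.

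Other genes of the transport machinery, from lists written with earlier results known, were also called between regions, 1 probe set per gene. In water rats 12 of 16 other kinesins and light chains differed, 7 higher and 5 lower in the CeA, against the 76.2% of all probe sets. Those of smallest p were Kif12 at -1.43, Kif22, a mitotic chromosome motor, at -1.09 and Kifc3, a minus-end motor, at 0.62. Of adaptors and cargo linkers 11 of 16 differed, 8 higher and 3 lower, led by Madd, which links Kif1a and Kif1b to Rab3 vesicles, at 0.65, Borcs5, of the complex that moves lysosomes, at -0.38 and Sybu at -0.34. Dynein and dynactin, the motor of the opposite direction, had 16 of 20, 13 higher and 3 lower, led by Dynlt1 at 1.20, Dctn6 at 0.37 and Dync1i1 at 0.60. Of tubulins and microtubule-associated proteins 27 of 35 differed, 19 higher and 8 lower, led by Stmn2 at 0.91, Map7d2, which recruits kinesin-1, at 0.64 and the tubulin tyrosine ligase Ttl at -0.71. The list medians lay between 0.11 and 0.22, against -0.01 for all.

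Markers of cell types moved with region too. The mean of 9 general neuron markers was 11.93 (SD 0.18, range 11.57 to 12.20) in CeA water arrays and 11.46 (SD 0.17, range 11.19 to 11.81) in NAc shell water arrays, with 4 of the 9 higher and 3 lower in the CeA. Oligodendrocyte markers were higher in 6 of 7 (median 0.77), with means of 12.80 (range 11.77 to 13.39) and 12.19 (range 11.89 to 12.46). Of 8 astrocyte markers 5 were higher and 2 lower, with means of 12.30 (range 12.11 to 12.47) and 11.91 (range 11.71 to 12.13). Of 8 microglia markers 5 were higher and 1 lower, with means of 9.13 (range 8.80 to 9.67) and 8.61 (range 8.38 to 8.87). Both markers of oligodendrocyte precursors were higher, with means of 10.53 (range 10.22 to 10.91) and 10.06 (range 9.82 to 10.35). Endothelial and meningeal markers had 2 of 5 higher each, and 2 and 1 lower. Their part in the kinesin differences was not tested.

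Groups of 1 treatment were next compared over the hours since their session. In limma 0 members passed in ethanol rats of the CeA (background 0.0591% of 18625 probe sets). An unadjusted p under 0.05 was held by 653 of all 18625 probe sets and by 2 of 19 members. These were Kif1a 1384133_at, with means of 9.95, 9.82 and 9.34 at 1, 6 and 24 h (unadjusted p = 0.0243), and Kif5c 1380172_at, with 13.23, 13.20 and 12.79 (unadjusted p = 0.0322), each with an adjusted p of 1.00. In CeA water rats 0 of 19 members passed, where the background was 0%, and 0 had an unadjusted p under 0.05, against 618 of all 18625. Among NAc shell members 0 of 18 passed in ethanol rats (background 0.0376%). An unadjusted p under 0.05 was held by 730 of all 18625 and by 1 member, Kif3c 1369637_at, with means of 11.40, 11.44 and 11.27. In NAc shell water rats 0 passed (background 0%), with 2 at an unadjusted p under 0.05 against 678 of all 18625. These 2 were Kif5c 1396154_at, with means of 7.40, 7.12 and 6.89, and Kif2a 1371125_at. The ethanol by hours interaction is built from the ethanol differences by which the genes were chosen, so nothing is read from it. It passed 0 members and had 0 at an unadjusted p under 0.05 in either region (background 0% in both). These probe sets were named after their values were seen. The tests of hours use the same arrays as the ethanol differences by which Kif1a and Kif5c were chosen. For these genes they are not independent of the choice. The low water arrays of Kif5c 1396154_at at 24 h, for instance, also enter its ethanol difference.

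Ethanol and water rats were also compared in the NAc shell at 1 h and 6 h. These contrasts enter the mean over the 3 times, which is among the values behind the choice of Kif5c, so they are not independent of it. No member passed limma's test. At 1 h 0 of 18 passed (background 0%) and 0 had an unadjusted p under 0.05, against 351 of all 18625. The median member difference was 0.04, against 0.00 over all tested probe sets. At 6 h 0 of 18 passed (background 0%), with 1 at an unadjusted p under 0.05 against 975 of all 18625. This was Kif5c 1396154_at at 0.41 ± 0.19. Its 5 water arrays at 6 h read 6.70, 6.99, 7.01, 7.32 and 7.60, and its ethanol arrays 7.02, 7.51 and 8.35 (lowest, median, highest), so the groups overlapped. Kif1a 1384133_at, below the filter in this region, gave 0.10 ± 0.12 at 1 h and 0.10 ± 0.13 at 6 h.

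The values behind the choice of the genes follow, as description. In CeA ethanol rats Kif1a 1384133_at stood above water rats by 0.61 ± 0.15 over the 3 times, a 1.53-fold difference, by 0.51 ± 0.26 at 1 h, 1.03 ± 0.28 at 6 h and 0.30 ± 0.26 at 24 h. At 6 h its 5 water arrays, at 7.82 to 9.54, overlapped with the 10 ethanol arrays, at 8.36 to 11.15. With the 4 runs as a block the mean difference was 0.64 ± 0.14, with 0.70 ± 0.23 at 1 h, 0.86 ± 0.25 at 6 h and 0.37 ± 0.23 at 24 h. The probe set 1382785_at of the same gene read 0.14 ± 0.08 over the 3 times with the block and 0.11 ± 0.09 without it. Within runs 1 to 4 the difference of 1384133_at was 0.45 (5 ethanol and 3 water arrays), 0.59 (10 and 6), 0.76 (10 and 6) and 0.69 (6 and 2), and 5 of 5, 10 of 10, 9 of 10 and 5 of 6 ethanol arrays stood above the water mean of their run. Mean levels of the runs were 9.19, 9.48, 9.82 and 9.19, beside Gapdh end differences of 2.46, 2.51, 3.45 and 3.09. The value of run 4 rests on 2 water arrays, both of 6 h, at 7.82 and 9.54, while its 6 ethanol arrays span all 3 times. Differences within runs are not adjusted for hours, so that of run 4 mixes treatment with hours.

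Kif5c in the CeA of ethanol rats read 0.33 ± 0.12 above water rats in 1380172_at over the 3 times, 0.10 ± 0.13 in 1395997_at and 0.20 ± 0.13 in 1396154_at. Within runs 1 to 4 the difference of 1380172_at was 0.25, 0.14, 0.49 and 0.34, with ethanol means of 12.67, 12.75, 13.34 and 13.52 and water means of 12.43, 12.61, 12.85 and 13.17. That of 1395997_at was -0.12, 0.11, 0.50 and -0.76, so it did not keep 1 sign. The values of run 4 rest on the same 2 water arrays of 6 h and mix treatment with hours. With single arrays left out the mean difference of 1395997_at ran from 0.014 to 0.18, both ends set by an array of CeA water rats at 6 h, and that of 1396154_at from 0.15 to 0.26. At 24 h in the NAc shell the order of its probe sets was another one, with 0.16 ± 0.23 in 1380172_at, 0.24 ± 0.15 in 1395997_at and 0.72 ± 0.18 in 1396154_at. The last had 5 water arrays at 6.78, 6.81, 6.89, 6.94 and 7.02 and ethanol arrays at 7.01, 7.67 and 8.23 (lowest, median, highest), which overlapped only at their edges. With single arrays left out 1380172_at ran from 0.07 to 0.31 at 24 h, both ends set by a water array of that group, and 1396154_at from 0.66 to 0.78. Over the 3 times in the NAc shell these probe sets read 0.16 ± 0.13, -0.03 ± 0.08 and 0.41 ± 0.10. The water arrays of 1396154_at at 24 h were the lowest group of the 12.

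Differences of the other members were as follows. Over the 3 times in the CeA, Kif3a 1378509_at read 0.16 ± 0.08, Kif3c 1369637_at 0.10 ± 0.07 and Kif5a 1373187_at -0.04 ± 0.08, and Kif5b 1372444_at, Kif2a 1383156_at and Klc1 1370886_a_at read -0.07 ± 0.08, 0.03 ± 0.04 and -0.01 ± 0.02. For the NAc shell Kif5a 1382787_at read 0.13 ± 0.05, Klc1 1370886_a_at 0.08 ± 0.05 and Kif3c 1369637_at 0.08 ± 0.04. Kif3a 1378509_at read 0.31 ± 0.16 at 24 h there. Of tested members 14 of 19 stood above 0 in the CeA over the 3 times, where 49.3% of all probe sets did, with medians of 0.03 and 0.00. In the NAc shell it was 15 of 18 over the 3 times and 17 of 18 at 24 h, where 53.4% and 53.8% of all did, with member medians of 0.05 and 0.11 against 0.01 and 0.01. The counts above 0 and the member medians cover all tested members, those of Kif1a and Kif5c included. They use the ethanol differences by which the genes were chosen. Probe sets of the same gene, read on the same arrays, are also not independent of each other. Nothing is therefore read from the distance between these shares and those of all probe sets. The neuron marker mean was 11.88 in ethanol and 11.93 in water rats of the CeA, and 11.55 and 11.46 in the NAc shell. Whether it bears on the kinesin values was not tested.

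The ethanol effect was then compared between the regions, CeA minus NAc shell. Limma passed 0 of 19 members (background 0.00508%, 1 probe set of 19678). Of the members 1 had an unadjusted p under 0.05, as did 1784 of all 19678 probe sets. The comparison holds the contrasts by which Kif1a and Kif5c were chosen, so nothing is read from these counts. In Kif1a 1384133_at the ethanol effect was larger in the CeA by 0.56 ± 0.18. With arrays weighted by quality 1 member passed, from which nothing is read for the same reason. For Kif5c the differences were 0.18 ± 0.18 in 1380172_at, 0.13 ± 0.15 in 1395997_at and -0.21 ± 0.17 in 1396154_at.

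Across arrays, with group means removed, Kif1a 1384133_at and Kif5c 1380172_at varied together in the CeA. Their Pearson r over 48 arrays was 0.56 and Spearman's rho 0.53 (permutation p = 4e-05 and 2.1e-04, adjusted over 24 relations 3.20e-04 and 0.00144), and r was 0.57 without the 2 arrays farthest from the median. Within runs 1 to 4 it was 0.88, 0.39, 0.78 and 0.85. In the NAc shell r was 0.31 and rho 0.20 (permutation p = 0.0306 and 0.163, adjusted 0.0832 and 0.326), and r fell to 0.11 without 2 arrays. The 2 tested Kif1a probe sets had an r of 0.25 over CeA arrays, against -0.04 over NAc shell arrays. For Kif5c, r of 1380172_at with 1395997_at was 0.31 over CeA arrays, against -0.13 over NAc shell arrays. With 1396154_at, 1380172_at had -0.07 and 0.31, and 1395997_at had 0.02 and 0.28, regions in the same order. These pairs are given without a test, because the disagreement of probe sets within both genes was known beforehand. In the CeA the Gapdh end difference had an r of 0.60 with Kif5c 1380172_at (permutation p = 2e-05, adjusted 2.40e-04) and 0.39 with Kif1a 1384133_at (permutation p = 0.00609, adjusted 0.0244). Within runs 1 to 4 these were -0.70, 0.18, 0.35 and 0.67, and -0.66, -0.06, 0.16 and 0.89, so neither kept 1 sign. With Kif5c 1395997_at it had an r of 0.47 (permutation p = 7.4e-04, adjusted 0.00444), positive in each run at 0.32, 0.54, 0.44 and 0.38. With 1396154_at r was -0.39 (permutation p = 0.00562, adjusted 0.0244), and within runs -0.39, -0.21, 0.11 and 0.50. In the NAc shell the end difference went with Kif1a 1382785_at instead (r of 0.70, permutation p = 1e-05, adjusted 2.40e-04). Only group means were removed and arrays were permuted across runs. The permutation p values of the CeA therefore also take in differences between its runs.

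By the same measure the probe sets most like Kif1a 1384133_at over the 48 CeA arrays were those of Zrsr2-ps1 (r of 0.83), Ubxn4 (0.78), Ankrd11 (0.76), Tpr (0.76) and Rpap3 (0.74). Over NAc shell arrays they were those of Tcf7l2 (0.67), Mff (0.66), Spetex2l1 (0.66), Eif4g1 (0.64) and Mecom (0.64), and none of the 5 was shared with the CeA. For Kif5c 1380172_at they were Sltm (0.93), Aggf1 (0.90), Kdm5a (0.88), Gpatch8 (0.87) and Zfp317 (0.86) in the CeA, and Eprs1 (0.89), Ccar1 (0.87), Srpk2 (0.85), Smarca4 (0.85) and Luc7l3 (0.84) in the NAc shell. These r describe arrays that share RNA quality and run, and carry no test. The member most like Kif1a 1384133_at in the CeA was Kif3a 1378509_at (0.63), which was also the member most like Kif5c 1380172_at in the NAc shell (0.70). In the NAc shell the member most like Kif1a 1384133_at was Kif5a 1375875_at (0.44). In the CeA the member most like Kif5c 1380172_at was Kif1a 1384133_at (0.56). For Kif1a and Kif5c the probe set used was the one with the largest SD across arrays after group means were removed.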

How the data were processed

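RNA of 96 tissue samples was hybridised to Affymetrix rat arrays after 2 cycles of amplification from 25 ng, per the labels. The authors deposited log2 values made by RMA, per the submitters' processing notes, with no version given. RMA corrects background, normalizes quantiles and summarises probes; array settings and filters are not given in the sources used here, and the lower quartiles of the regions do not overlap, so whether both regions were normalized together is unknown.

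The 9 members, the gene lists and the tests were chosen with earlier results of these data known. Of 31099 probe sets, 57 controls were left out. Symbols came from the platform annotation, updated by Entrez ID. Probe sets with a mean above the 40th percentile (6.96 in the CeA, 7.09 in the NAc shell) were tested, 18625 per region and 19678 in either. limma 3.58.1 in R 4.3.3 was fitted with 6 group means per region, or 12 for both regions, with trended variances and Benjamini-Hochberg adjustment over all tested probe sets, and adjusted p under 0.05 counted as passing. The fit was tested on simulated data. Differences between probe sets and correlations used two-sided permutation tests with 100000 resamples. Values were named in full for Kif1a and Kif5c and for the brightest probe set of each other member. In lists the 3 genes of smallest p were named, and for likeness the 5 highest r.

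Title numbers are shared between treatments, and arrays were not taken as pairs by them. The 17 shared CeA numbers had a mean residual correlation of 0.07 (range -0.78 to 0.75), with 8 over 0.1. The 3 shared NAc shell numbers had -0.33 (range -0.46 to -0.18). Whether arrays of the same number were processed together was not tested. Alternatives were other filters, repeated quantile normalization, array quality weights, the Gapdh end difference as a covariate, blocks for title number and CeA run, and leaving out low-correlation arrays or each array in turn. Precision is limited by how many arrays each group holds.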

Additional observations from a re-analysis of the deposited data

Results flagged for a closer look

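Of 130 groups of 4 to 10 arrays examined over 13 probe sets, those named in full, 10 had 1 array far from the rest by Dixon's criterion, where chance gives about 5% of groups. Kif1a contributed 3 in NAc shell water rats. These were a lowest array of 9.37 at 24 h in 1382785_at (next 9.65), a highest of 7.13 at 6 h in 1384133_at (next 7.01) and a lowest of 6.10 at 1 h in 1397505_at (next 6.45). CeA water rats at 6 h, a group of 5 arrays, held 3 more, a lowest of 12.36 for Kif5a 1373187_at (next 12.71), a highest of 13.98 for Kif5c 1380172_at (next 12.82) and a lowest of 11.66 for Kif3c 1369637_at (next 11.97). In CeA water rats at 24 h the lowest array for Kif3a 1378509_at was at 9.79 (next 10.14). In the NAc shell, Kif5b 1372444_at had a highest array of 13.04 in water rats at 6 h (next 12.60). Ethanol rats at 6 h there had a lowest array of 7.79 for Kif3a 1378509_at (next 8.59) and a highest of 10.69 for Kif2a 1383156_at (next 10.33). No cause was tested.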

How the results depend on the processing

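The counts of members called for region, hours, interaction and ethanol in the NAc shell at 1 h and 6 h stayed within 1.5 times of the main count under each alternative run, and so did every leave-one-out count. The exception was the ethanol effect of the CeA minus that of the NAc shell, where 1 member passed with array quality weights in place of 0. That contrast and the interaction hold the ethanol differences by which Kif1a and Kif5c were chosen, so nothing is read from their counts. For single probe sets, signs turned only where differences were near 0. In ethanol rats Kif2a 1392532_at became 0.00679 without low-correlation arrays and Kif5c 1396154_at 0.0223 with quality weights. In water rats Kif2a 1392532_at became -0.0254 with quantile normalization over both regions and -0.00710 with quality weights, and over single arrays left out it ran from -0.0280 to 0.0259 in water and from -0.0243 to 0.00118 in ethanol rats. Other calls moved too. Limma no longer passed Kif3a 1377025_at in ethanol rats with quality weights (-0.07, adjusted p = 0.112) or without low-correlation arrays (-0.08, adjusted p = 0.0532). With the run block Kif1a 1382785_at passed in ethanol rats (-0.13, adjusted p = 0.0419), and Kif5a 1375875_at (0.18, adjusted p = 0.0371) and Klc1 1388125_a_at (-0.37, adjusted p = 0.0342) passed in water rats. In water rats quality weights also passed Kif5a 1375875_at (0.21, adjusted p = 0.00377) and Kif5b 1378096_at (0.17, adjusted p = 0.0200), and the Gapdh covariate passed Klc1 1388125_a_at (-0.44, adjusted p = 8.11e-04). The cause was not tested. With title number as a replicate block, 13 of the 19 members, 1384133_at included, were called between regions in water and 15 in ethanol rats, Kif1a 1384133_at differed by 0.61 between ethanol and water rats of the CeA, and the block changed no call. Without single arrays, the description of Kif1a 1384133_at at 6 h in the CeA ran from 0.79 to 1.22. At the 60th percentile, dim members left the test and gave no value.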
